A study of Mus musculus with 4 samples.

Results

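The genes described here are interferon-stimulated genes (ISGs), a list of 49 genes named for their response to interferon, of which 45 were measured among 22180 genes on Mouse Gene 2.0 ST arrays. They were found by symbol through the probe annotation of the array, and no value enters the rule, although the list was drawn up with earlier results of these data known. Of the 49 genes, 40 were assigned to type I interferon and 9 to type II interferon, and 37 and 8 of these were measured. *Oas1a*, *Dtx3l*, *Gbp2* and *Ifi44* were not analysed here as single genes.

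Levels were compared on 4 arrays, 1 per condition. AML12 cells, a line from hepatocytes of a male CD-1 mouse transgenic for TGF alpha, were kept in medium with 10 nM dexamethasone and transfected for 72 h with 10 nM of a negative siRNA (control) or of *Ulk1* siRNA. Male wild-type mice were labelled C57N1/6N and aged 6 weeks (C57BL/6N and from 4 to 6 weeks in the methods). They received control or *Ulk1* siRNA by hydrodynamic injection into the tail vein, in 3 injections of 40 ug each, 24 h apart. Liver was taken, and 72 h is given as the time after siRNA. Per the methods an array held a pool of 4 samples, assumed here to be 1 pool for each condition, so a difference between arrays carries no replicate error and no p-value. The control cells and mice also received an siRNA, of another sequence, and no array without siRNA was analysed here. How far each siRNA itself affects the ISGs was not tested.

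Interferons are cytokines that cells release when they sense viral or other foreign nucleic acid. An siRNA is also double-stranded, and which sensors respond to the siRNAs used here was not tested. Double-stranded RNA in general is sensed by the helicases RIG-I and MDA5, by the kinase PKR and by TLR3. Type I interferon then acts through its receptor on a complex of STAT proteins and IRF9 that binds the interferon-stimulated response element (ISRE) of target promoters, whereas type II interferon, or interferon gamma, acts mainly through a STAT dimer on the gamma-activated site (GAS). Many ISGs respond to both, so the classes name the better known inducer and do not exclude the other.

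In AML12 cells the targeted gene *Ulk1*, an autophagy kinase, was at a log2 level of 7.47 with control siRNA and 7.06 with *Ulk1* siRNA, or 75.6% of control. In liver it was 8.73 and 8.46, or 83.0% of control. Over all genes the median log2 difference was 0.01 in AML12 cells and -0.02 in liver, with a median absolute difference of 0.17 and 0.19, and this spread over genes is the only scale that the arrays give for a single difference. Of 10 hepatocyte markers, 10 reached the array median, taken over all genes, on both liver arrays. In AML12 cells 6 reached it with control siRNA and 8 with *Ulk1* siRNA, and *Cyp2e1*, *Cps1*, *Tat* and *Serpina1a* lay below it in control cells.

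Promoter sequence is shown for a choice of the members with a match to the ISRE, the element through which type I interferon acts. Of those shown, *Isg15* and *Irgm1* differed by less than 0.5 log2 after *Ulk1* siRNA in both systems. The RefSeq promoter table of GRCm38.p6, with 250 bases before and 50 bases after each gene start, held 34 of the 45 measured members. The ISRE letters GAAANNGAAA, searched on both strands and so also as TTTCNNTTTC, were found in 15 of the 34 (44.1%) and in 3.99% of all 27025 genes in the table. By class, 11 of 27 type I members (40.7%) and 4 of 7 type II members (57.1%) held them. The GAS letters TTCNNNGAA, which read the same on both strands, were found in 10 of 34 members (29.4%) and in 9.55% of all genes. The stretches around the ISRE letters, 5′ to 3′ on the strand of the gene and with every matched base in capitals, are as follows.
*Ifit1*, chr19:34640760-34640838, plus strand, GRCm38.p6: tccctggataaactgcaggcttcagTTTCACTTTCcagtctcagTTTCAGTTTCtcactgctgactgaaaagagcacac
*Ifit3*, chr19:34583348-34583441, plus strand, GRCm38.p6: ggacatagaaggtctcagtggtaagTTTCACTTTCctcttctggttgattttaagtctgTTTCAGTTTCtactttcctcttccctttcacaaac
*Isg15*, chr4:156200850-156200921, minus strand, GRCm38.p6: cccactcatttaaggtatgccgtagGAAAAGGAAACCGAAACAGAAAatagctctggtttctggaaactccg
*Stat2*, chr10:128270251-128270310, plus strand, GRCm38.p6: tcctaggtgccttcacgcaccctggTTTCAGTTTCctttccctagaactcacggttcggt
*Gbp3*, chr3:142559974-142560039, plus strand, GRCm38.p6: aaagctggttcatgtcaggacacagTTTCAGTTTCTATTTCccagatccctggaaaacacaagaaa
*Irgm1*, chr11:48871410-48871475, minus strand, GRCm38.p6: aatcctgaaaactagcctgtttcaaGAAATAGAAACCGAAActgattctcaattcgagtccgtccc
*Ifit1* and *Ifit3* had the same pair of words, TTTCACTTTC and TTTCAGTTTC. These words began 104 and 85 bases before the listed start of *Ifit1* and 156 and 122 bases before that of *Ifit3*. The *Ifit3* window, chr19:34583279-34583578, lies inside the annotated gene, which begins at 34583119. Its matches are therefore not ahead of the first base of that gene. *Isg15* had 3 overlapping matches between 78 and 66 bases before its start, while the single match of *Stat2* lay 222 bases before. The type II members *Gbp3* and *Irgm1* each had 2 overlapping matches, which began 45 and 39 bases and 30 and 24 bases before the start. These letters were not in the windows of *Ifit2*, *Cmpk2*, *Isg20* and *Xaf1*. Nor was a match found for *Usp18*, *Dhx58*, *Zbp1* and *Ifi27*, and whether each of these had a window is not given here. A match describes the letters of the reference and was not tested as a binding site.

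The first comparison asked how strongly the ISGs were expressed in the cell line and in liver that had received control siRNA. On the control arrays most ISGs of both classes were higher in liver. Of 45 members, 39 were higher in liver, where 46.2% of all genes were. By at least 1 log2, 28 were higher, where 9.33% of all genes were, and 3 were lower, where 12.6% of all genes were. The median difference, liver minus AML12 cells, was 1.39 for type I genes and 1.94 for type II genes, beside -0.05 for all genes. By class, 21 of 37 type I and 7 of 8 type II members were higher in liver by at least 1 log2. Cell source, strain, siRNA delivery and culture all differ between these arrays, and their parts cannot be told apart.

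*Iigp1*, an immunity-related GTPase that disrupts the vacuoles of intracellular parasites, differed most. It had a log2 level of 2.91 in control AML12 cells, below the array median of 4.35, and of 10.93 in control liver, a difference of 8.01. *Ifi27*, which encodes a small mitochondrial membrane protein, followed with 3.63 and 8.12, a difference of 4.48. No fold is given in this comparison for a gene below the array median in AML12 cells, since its level there was not shown to be above background. These 2 genes were as far apart on the *Ulk1* siRNA arrays, where liver minus AML12 cells was 8.06 for *Iigp1* and 4.63 for *Ifi27*. *Usp18* was higher in liver by 3.20 (9.20-fold), *Rtp4*, a chaperone of membrane receptors, by 3.14 (8.82-fold), and *Cmpk2*, a mitochondrial nucleotide kinase, by 2.87. *Epsti1* differed by 2.74, *Irf7*, the transcription factor that amplifies type I interferon production, by 2.73, and *Gbp3* by 2.61. *Tap1*, a subunit of the peptide transporter for class I antigen presentation, was higher in liver by 2.13 (4.39-fold), and *Isg15* by 1.84.

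Only 6 of the 45 members were lower in control liver than in control AML12 cells. *Isg20*, a ribonuclease that degrades single-stranded RNA, was at 9.13 in AML12 cells and 6.05 in liver, so that liver had 11.8% of the level in the cells. *Lgals3bp*, a secreted glycoprotein that binds galectins, was at 11.10 and 9.11 (25.2%), and the RNA receptor *Tlr3* at 7.53 and 6.42 (46.3%). *Irgm1*, *Eif2ak2* and *Ifi35* were lower in liver by 0.39, 0.27 and 0.12 log2. At 0.5 log2 or more, 3 of the 45 members were lower in liver (6.67%, beside 25% of all genes). Of the 6 sensors of nucleic acid, 4 were higher in liver, 3 of them by at least 1 log2 (*Zbp1*, *Ifih1* and *Dhx58*), and *Tlr3* and *Eif2ak2* were the exceptions.

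**Figure D1:**
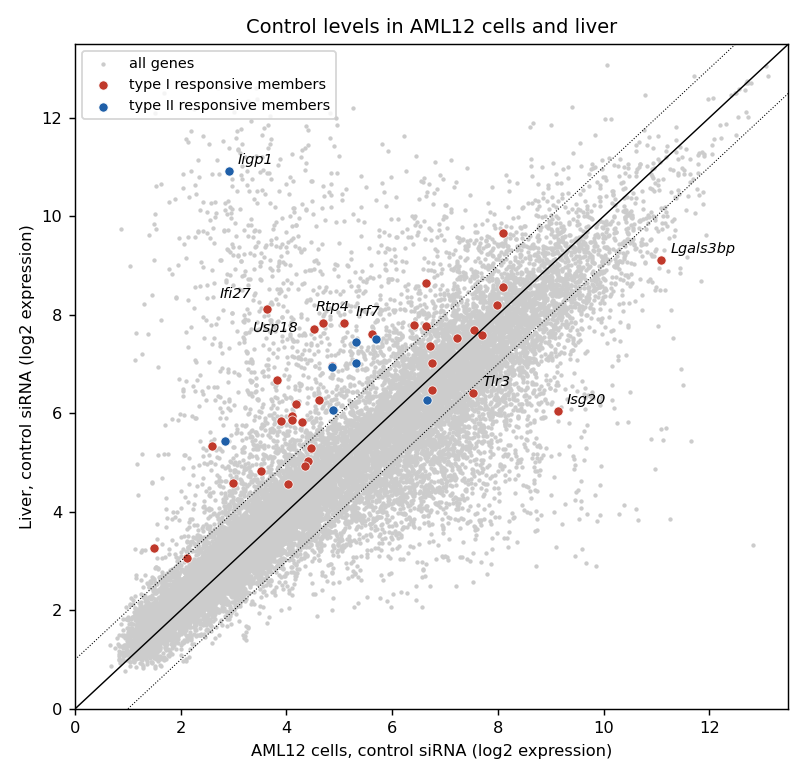
Log2 expression on the control siRNA arrays, AML12 cells on the x axis and liver on the y axis, for all 22180 genes (grey), 37 type I responsive members (red) and 8 type II responsive members (blue). The solid line marks equal levels and the dotted lines 1 log2 either way. Most members lie above the solid line, with *Iigp1* and *Ifi27* far above it, while *Isg20*, *Lgals3bp* and *Tlr3* lie below the lower dotted line.

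Fewer members were dim in liver than in the cells. The array median was reached by 29 of 45 members in control AML12 cells, 30 in AML12 cells with *Ulk1* siRNA, 43 in control liver and 42 in liver with *Ulk1* siRNA. The 4 measured members of the OAS family, which make the second messenger that activates RNase L, were all below that median in control AML12 cells. *Mx1* was below it on all 4 arrays, as was *Trim30a*, and the RefSeq table lists *Mx1* and *Mx2* of the C57BL/6J reference as transcribed pseudogenes. A difference between arrays of such a gene is a difference between signals near the lower end of the scale.

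The second comparison asked what *Ulk1* siRNA was followed by in AML12 cells. Most ISGs differed little between the arrays, and the few that differed went both ways. Of 45 members, 4 were higher by at least 0.5 log2 (8.89%, beside 3.93% of all genes), namely *Usp18*, *Ifit3*, *Gbp3* and *Xaf1*, and 3 were lower by that size (6.67%, beside 4.67% of all genes), namely *Isg20*, *Stat2* and *Ifi27*. At 1 log2, 0 members were higher (0.243% of all genes) and only *Isg20* was lower (0.789% of all genes). In either direction, 27 members were above and 18 below control, where 51.4% of all genes were above, and the median difference was 0.04 for type I genes and 0.10 for type II genes, against 0.01 for all genes.

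The third comparison asked the same in liver. There the ISGs were more often below control than above, by small differences. Of 45 members, 6 were lower by at least 0.5 log2 (13.3%, beside 7.02% of all genes and 5.21% of genes at or above the median level), namely *Cmpk2*, *Dhx58*, *Isg20*, *Ifit2*, *Ifit1* and *Ifit3*, all of them type I genes. Only *Zbp1* was higher by that size (2.22%, beside 6.01% of all genes and 3.68% of genes at or above the median level). At 1 log2, 0 members passed in either direction (0.559% of all genes higher and 0.69% lower). Counting any difference, 13 members were above and 32 below control. Of all genes 47.6% were above, and of genes at or above the median level 45.5%. The median was -0.13 for type I genes, with 26 of 37 below control, and -0.21 for type II genes, with 6 of 8 below, against -0.02 for all genes.

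**Figure D2:**
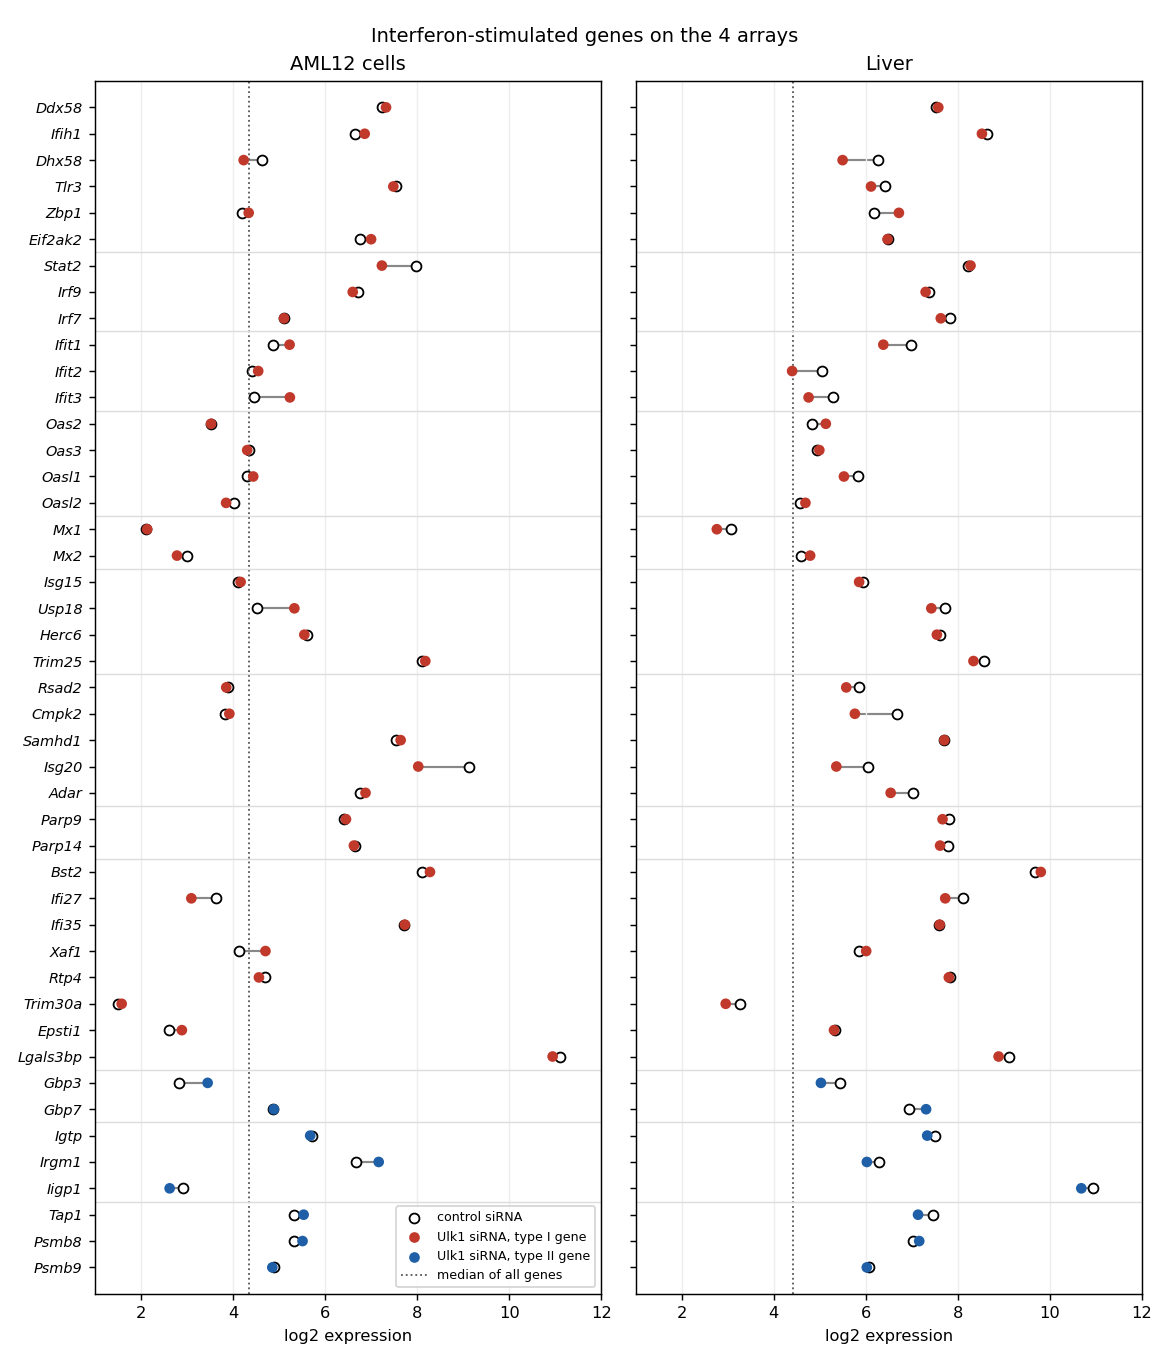
Log2 expression of the 45 measured members in AML12 cells (left) and liver (right), in order of role with grey lines between groups. Open circles are the control siRNA array and filled circles the *Ulk1* siRNA array, red for type I and blue for type II responsive genes, with 1 array per circle. The dotted line is midway between the medians of all genes on the control and *Ulk1* siRNA arrays of the panel. The circles of most genes nearly coincide, and the wider gaps are those of *Isg20*, *Usp18*, *Ifit3* and *Stat2* in cells and *Cmpk2*, *Dhx58* and *Isg20* in liver.

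Among the sensors of foreign nucleic acid, the differences in AML12 cells were all within 0.5 log2, with a median of 0.12. *Ddx58*, which encodes RIG-I, had log2 levels of 7.23 and 7.32 on the control and *Ulk1* siRNA arrays of AML12 cells and of 7.53 and 7.57 on those of liver. Its levels were therefore close on all 4 arrays. *Dhx58*, which encodes LGP2, a relative of RIG-I that lacks its signalling domains, was at 4.61 and 4.23 in AML12 cells and at 6.26 and 5.49 in liver. The liver difference of -0.77 left 58.7% of control and was at rank 448 from the lowest of 22180 genes, and the difference in cells, -0.39, had the same sign. *Zbp1*, a sensor of left-handed double-stranded nucleic acid, was at 4.19 and 4.33 in AML12 cells and at 6.18 and 6.72 in liver, the latter a difference of 0.54 (1.45-fold). *Ifih1*, *Tlr3* and *Eif2ak2* differed by between -0.05 and 0.24 in cells and between -0.30 and -0.01 in liver.

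Of the proteins that carry the signal, *Stat2*, the STAT particular to type I and type III interferon, was at 7.98 and 7.23 in AML12 cells and at 8.21 and 8.27 in liver. In cells the difference of -0.75 left 59.6% of control, at rank 358 from the lowest of all genes, while in liver it was 0.06. The single ISRE match of its promoter is printed above. *Irf9*, the DNA-binding partner of the STAT complex, differed by -0.11 in cells and -0.07 in liver, and *Irf7* by 0.01 and -0.20. Within this complex the lower value in cells was thus seen for *Stat2* and not for *Irf9* at a comparable size, a contrast that was not tested.

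The 3 IFIT genes, whose proteins bind foreign RNA and block its translation, were above control in AML12 cells and below control in liver. *Ifit1* was at 4.86 and 5.22 in AML12 cells (difference 0.37, or 1.29-fold) and at 6.97 and 6.38 in liver (difference -0.59, or 66.4% of control). *Ifit2* was at 4.40 and 4.54 in AML12 cells (0.14) and at 5.04 and 4.40 in liver (-0.64, or 64.1% of control). *Ifit3* was at 4.46 and 5.23 in AML12 cells (0.77, or 1.71-fold) and at 5.29 and 4.76 in liver (-0.53, or 69.1% of control). In cells *Ifit3* was at rank 172 from the highest of all genes, and the control levels of the 3 genes in cells lay just above the array median of 4.35. The 3 genes are neighbours on chromosome 19, and copies of them lie beside them, so that probes may read more than 1 copy. Of these copies, looked up after the values of the members were seen, *Ifit3b* differed by 0.12 in cells and -0.53 in liver, *Ifit1bl1* by 0.09 and -1.39, and *Ifit1bl2* by -0.61 and 0.30, all with levels below the array median.

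The OAS and MX genes differed little. *Oas2* was at 3.52 on both AML12 arrays, below the array median, and at 4.84 and 5.13 in liver, a difference of 0.29. *Oas3*, *Oasl1* and *Oasl2* differed by between -0.18 and 0.13 in cells and between -0.30 and 0.13 in liver. *Mx1*, a dynamin-like GTPase that traps viral nucleocapsids, was at 2.11 and 2.13 in AML12 cells and at 3.07 and 2.76 in liver, and *Mx2* differed by -0.22 and 0.20. None of these 6 measured genes passed 0.5 log2 in either system. A probe set that names both *Oas1a* and *Oas1g*, and so was left out of the counts, was at 2.66 and 3.06 in AML12 cells and at 3.98 and 3.31 in liver, differences of 0.40 and -0.67 between values below the array median. Left out for the same reason, the probe set of *Gbp2* and *Gbp2b* differed by 0.07 in cells and -0.38 in liver. That of *Dtx3l* and *Parp9* differed by -0.15 and -0.14.

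*Isg15*, a ubiquitin-like modifier whose promoter held 3 overlapping ISRE matches, was at 4.11 and 4.16 in AML12 cells and at 5.94 and 5.85 in liver, differences of 0.05 and -0.09. *Usp18*, the protease that removes ISG15 from proteins and restrains type I interferon signalling at its receptor, was at 4.52 and 5.33 in AML12 cells and at 7.72 and 7.42 in liver. In cells the difference was 0.81, or 1.75-fold, at rank 148 from the highest of all genes, and in liver it was -0.30, or 81.3% of control. The modifier and its protease thus did not differ by the same amount in cells. *Herc6*, the mouse ligase for ISG15, and *Trim25*, a ubiquitin ligase that acts on RIG-I, differed by -0.07 and 0.08 in cells and by -0.08 and -0.23 in liver.

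The enzymes that act on nucleotides and RNA held the largest differences of the list in both systems. *Isg20* was at 9.13 and 8.02 in AML12 cells and at 6.05 and 5.36 in liver. In cells the difference of -1.11 left 46.3% of control, at rank 117 from the lowest of all genes. In liver it was -0.69, or 61.9% of control, at rank 644. *Isg20* was the only member lower by at least 0.5 log2 in both systems. *Cmpk2* was at 3.81 and 3.91 in AML12 cells and at 6.68 and 5.76 in liver, where the difference of -0.92 left 52.8% of control at rank 232 from the lowest. Its neighbour *Rsad2*, which encodes the antiviral enzyme viperin, was at 3.90 and 3.85 in AML12 cells and at 5.85 and 5.57 in liver, a difference of -0.28, so the lower liver value of *Cmpk2* was not matched in size by the gene beside it. *Adar*, which edits adenosine to inosine in double-stranded RNA, differed by 0.11 and -0.48, and *Samhd1*, which degrades deoxynucleotides, by 0.09 and 0.00.

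Of the other type I genes, *Parp9*, which works with the ubiquitin ligase DTX3L, was at 6.41 and 6.45 in AML12 cells and at 7.80 and 7.67 in liver. *Parp14* differed by -0.03 and -0.17. *Bst2*, the tetherin that holds budding virus at the cell surface, was at 8.09 and 8.27 in AML12 cells and at 9.67 and 9.80 in liver, slightly above control in both. *Ifi27* was at 3.63 and 3.09 in AML12 cells and at 8.12 and 7.72 in liver, differences of -0.54 and -0.39, and both values in cells were below the array median. *Xaf1*, which antagonizes an inhibitor of apoptosis, was at 4.11 and 4.70 in AML12 cells (0.59) and at 5.86 and 6.01 in liver (0.15). *Ifi35*, *Rtp4*, *Trim30a*, *Epsti1* and *Lgals3bp* differed by between -0.16 and 0.28 in cells and between -0.31 and 0.02 in liver. *Ifi35* had a second, dimmer probe set that differed by 0.64 in liver, where the brighter 1 differed by 0.02, so its probe sets disagreed.

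In the type II class, *Gbp3*, a guanylate-binding protein of the family that attacks pathogen vacuoles, was at 2.83 and 3.44 in AML12 cells and at 5.44 and 5.02 in liver. The difference in cells was 0.61 between values that were both below the array median, and in liver it was -0.42. *Gbp7* differed by 0.02 and 0.37. *Igtp*, an immunity-related GTPase, was at 5.70 and 5.67 in AML12 cells and at 7.50 and 7.33 in liver. *Irgm1*, a regulator of the other GTPases of that family, was just inside the threshold in cells at 0.49 (6.67 and 7.16) and differed by -0.26 in liver (6.28 and 6.02). *Iigp1*, so far apart between the systems, differed by only -0.29 and -0.24 within them. *Tap1* was at 5.32 and 5.53 in AML12 cells and at 7.45 and 7.13 in liver, differences of 0.21 and -0.32. The immunoproteasome subunits *Psmb8* and *Psmb9* differed by 0.19 and -0.04 in cells and by 0.13 and -0.05 in liver. In the class as a whole, 1 of 8 members passed 0.5 log2 in cells and 0 of 8 in liver, where 8.6% and 13% of all genes passed it in either direction.

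**Figure D3:**
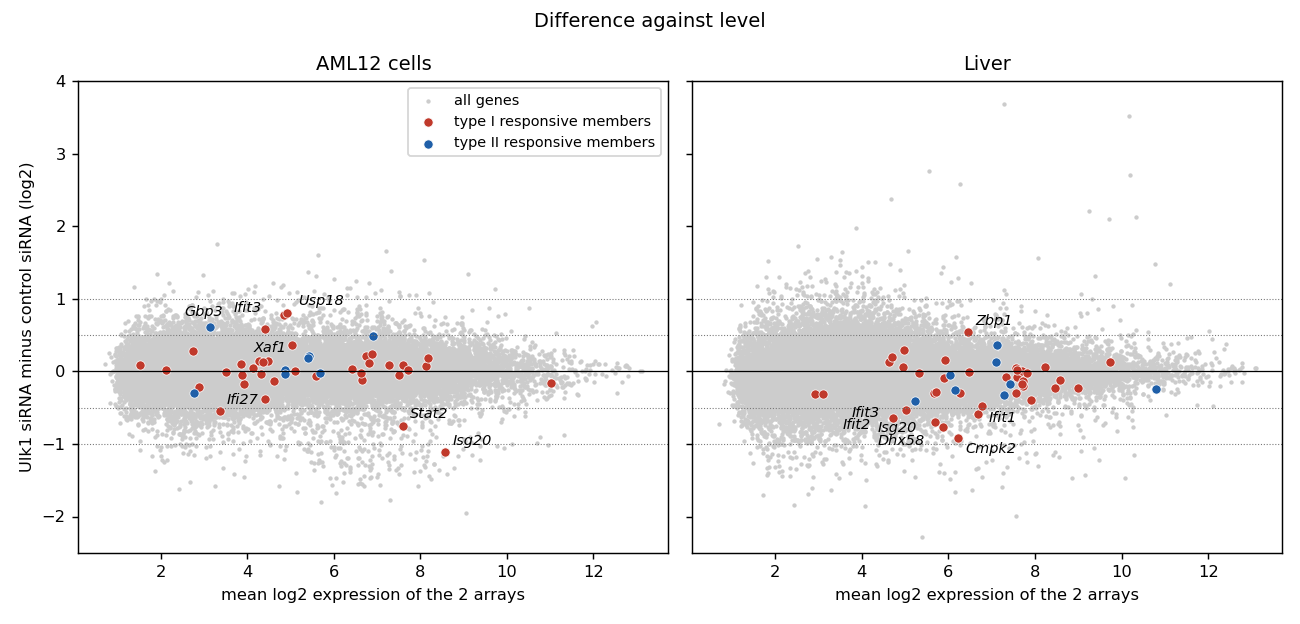
*Ulk1* siRNA minus control siRNA (log2, y axis) against the mean log2 expression of both arrays (x axis), in AML12 cells (left) and liver (right), for all genes (grey), type I responsive members (red) and type II responsive members (blue), with dotted lines at 0.5 and 1 log2. Most members lie within the band of all genes at their level, and *Isg20* is the only one past 1 log2.

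Set side by side, the differences in cells and in liver were not aligned. Of 45 members, 21 differed in the same direction in both systems (46.7%, beside 50.3% of all genes), 8 of them higher and 13 lower in both. A further 19 were higher in cells and lower in liver (42.2%, beside 26.6% of all genes) and 5 the reverse (11.1%, beside 22.7%). Across the 45 members the correlation of the differences was 0.04 by Pearson's r and -0.07 by Spearman's rho, beside 0.02 and 0.02 over all genes. Genes are not independent replicates, so these describe the arrays only. Within 0.5 log2 in both systems were 33 members (73.3%, beside 80.1% of all genes), and 2 passed it in both (4.44%, beside 1.79%), *Isg20* in the same direction and *Ifit3* in opposite directions. *Usp18*, *Gbp3* and *Cmpk2* also differed in opposite directions in cells and liver, by 0.81 and -0.30, 0.61 and -0.42, and 0.10 and -0.92.

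**Figure D4:**
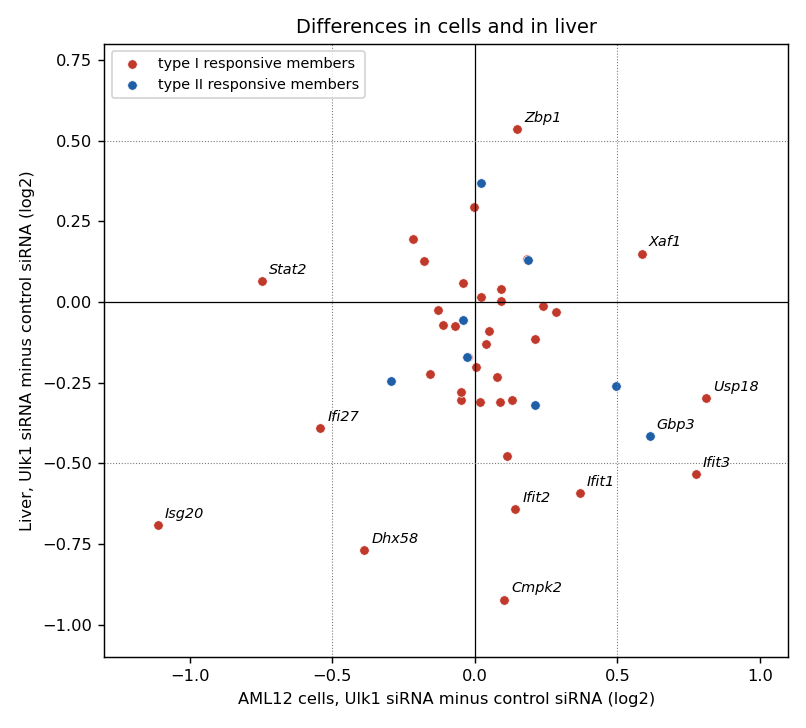
*Ulk1* siRNA minus control siRNA (log2) in AML12 cells (x axis) and in liver (y axis) for the 45 measured members, red for type I and blue for type II responsive genes, with dotted lines at 0.5 log2. *Isg20* lies far to the lower left, the 3 IFIT genes, *Usp18* and *Gbp3* lie to the lower right, and most members lie near the centre.

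The rest of the pathway was read from lists of interferons, receptors, signalling proteins, inducers, regulatory factors, antigen presentation genes and further interferon gamma responsive genes, of which 73 of 82 genes were measured. In AML12 cells 5 of the 73 were above control by 0.5 log2 or more and 3 below it, beside 3.93% and 4.67% of all genes, and the median was -0.04. In liver 6 were above and 6 below by that size, beside 6.01% and 7.02% of all genes, and the median was 0.04. The interferons themselves were mostly dim, with 5 to 7 of 18 at or above the array median, and the interferon alpha genes are near-identical copies whose probe sets are uncertain. *Ifnb1* was at 2.48 and 2.10 in AML12 cells and at 2.72 and 2.39 in liver, below the array median throughout. *Ifna6*, *Ifnab* and *Ifna15* differed in cells by 0.50, 0.59 and -0.77, and *Ifna1*, *Ifna6*, *Ifna2* and *Ifna7* differed in liver by 0.75, 0.56, -0.64 and -0.73.

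Most receptors and signalling proteins were within 0.5 log2 of control. *Ifnar1*, a chain of the type I receptor, was at 8.92 and 9.13 in AML12 cells and at 8.70 and 8.66 in liver, and *Ifngr1*, a chain of the type II receptor, at 9.38 and 9.35 and at 7.26 and 6.97. Its partner chain *Ifngr2* differed by -0.48 in cells, or 71.7% of control, and by 0.01 in liver. *Ifnlr1*, a chain of the type III receptor, differed by 0.63 in cells and 0.65 in liver, in liver between 3.10 and 3.75, both below the array median. *Mavs*, the mitochondrial adaptor of RIG-I and MDA5, differed by 0.04 in cells and -0.07 in liver. *Irf1*, a transcription factor downstream of interferon gamma, differed by -0.17 and 0.18. *Socs3*, an inhibitor of cytokine signalling, differed by -0.13 in cells and 0.55 in liver. *Tlr7*, an endosomal receptor for single-stranded RNA, differed by 0.02 in cells and by 1.16 in liver, between 3.15 and 4.31, both below the array median.

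The largest single difference in the pathway was that of *Gbp8*, which is not a member of the list. It was at 2.42 in control AML12 cells and 4.17 with *Ulk1* siRNA, both below the array median, and this difference of 1.75 was the highest of all 22180 genes in cells. In liver it was at 5.30 and 5.13. *Gbp9*, a further member of the family, was at 6.66 and 7.36 in AML12 cells (0.69) and at 6.18 and 6.04 in liver (-0.14). Of 7 guanylate-binding proteins measured in all, members included, 5 were above control in cells and 2 in liver, where 51.4% and 47.6% of all genes were. *Gbp3*, *Gbp4*, *Gbp5*, *Gbp6* and *Gbp8* were below the array median on both AML12 arrays, and *Gbp4*, *Gbp5* and *Gbp6* also on both liver arrays. *Gbp4* was below control in both, by -0.44 and -0.56, and *Gbp6* above it in both, by 0.31 and 0.51. Of the antigen presentation genes, *H2-T23* differed by -0.78 in cells and 0.21 in liver, and *H2-Ab1*, a class II chain, by 0.21 and -0.72. Among the chemokines, *Cxcl10* differed by -0.01 and -0.59 and *Cxcl11* by -0.55 and 0.22, and *Ido1*, which degrades tryptophan, by -0.16 and -0.60.

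Liver tissue holds cells other than hepatocytes, and in bulk samples fewer cells of a type and less RNA per cell cannot be told apart. Of 10 markers of Kupffer cells and macrophages, 10 were at or above the array median on both liver arrays and 1 in AML12 cells. They were above control in liver for 9 of 10, where 47.6% of all genes were, with a median of 0.19. Their summed linear level in liver was 1791 with control and 2036 with *Ulk1* siRNA, against 125 and 132 in AML12 cells. Of 9 sinusoidal endothelial markers, 1 was above control in liver, beside 47.6% of all genes, and 8 were below. Their median was only -0.05. By 0.5 log2 or more 1 was lower, *Lyve1* at -0.57, beside 7.02% of all genes, and the sum was 2169 and 2067. Of 9 stellate cell markers, 7 were below control in liver by 0.5 log2 or more, where 7.02% of all genes were. Their median was -0.84 and the sum 1683 and 947. Of 10 markers of monocytes and neutrophils, 0 reached the array median on any array. The sums for 9 markers of T and NK cells were 131 and 125 in liver, against 105 and 94 in AML12 cells. For 6 markers of B cells they were 203 and 211 in liver, against 159 and 167 in AML12 cells. For 6 markers of plasmacytoid dendritic cells other than the member *Bst2* they were 161 and 158, against 125 and 135. On the control and *Ulk1* siRNA arrays of liver, 2 and 1 of the T and NK cell markers reached the array median, and 1 B cell marker on each. The part of these cell types in the ISG values was not tested.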

How the data were processed

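Gene expression was measured on 4 Mouse Gene 2.0 ST arrays with 250 ng of RNA, 1 array per condition. The authors deposited log2 values for 41345 probe sets. RMA is named in the submitters' processing notes, and quantile normalization and Partek software in the methods, and the genome build of the values is not given in the sources used here. No further normalization was applied. The sources do not say that the 4 arrays were normalized jointly, so levels set across AML12 cells and liver assume it. Array medians over probe sets were between 3.79 and 3.98.

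Of the probe sets, 23521 carried 1 gene symbol in the annotation, 1820 several and 16004 none here. A RefSeq table held the identifiers of 25145 probe sets. Each of 22180 genes was represented by its 1-symbol probe set of highest mean over the arrays. Differences are *Ulk1* siRNA minus control siRNA. No test was possible with 1 array per condition, and this number of arrays sets the precision. Genes were counted at 0.5 and 1 log2 without a filter on level. All measured members are described. Levels on each array are given for those past 0.5 log2 in either system and for the first measured member of each role group. Of the other pathway genes, those past 0.5 log2 are named, with *Ulk1*, *Irf1*, *Ifnar1*, *Ifngr1* and *Mavs*. Members and lists were chosen with earlier results of these data known. *Ifnb1*, the IFIT copies, the levels of *Irgm1* and the examples of the control comparison were chosen after their values were seen.

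Alternatives were averaging the probe sets of each gene, keeping those with several symbols, a level filter, centring on medians, loess (span 0.3) against level, quantile normalization by pair, list means in place of medians, a threshold of 1.5-fold, and narrower classes. The code was tested on simulated data. Promoters are from RefSeq (GRCm38.p6). Calculations were made in Python 3.11.15 with pandas 2.3.3, numpy 2.4.6 and statsmodels 0.14.6, and figures with matplotlib 3.10.9.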

Additional observations from a re-analysis of the deposited data

Results flagged for a closer look

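The difference after *Ulk1* siRNA had opposite signs in AML12 cells and in liver for *Ifit3*, which was past 0.5 log2 in both systems, at 0.77 in cells and -0.53 in liver. Liver minus cells was -1.31. The 3 IFIT genes as a group had a median of 0.37 in cells and -0.59 in liver, every gene being above control in cells and below control in liver, and the difference between the medians was -0.96. Neither difference between the systems was tested, since each rests on 1 array per condition.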

How the results depend on the processing

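Of 100 recomputed medians and counts, 87 stayed within 0.1 log2 or, for counts, within 1.5 times the reported value, and 13 did not. At a threshold of 1.5-fold in place of 1 log2, 4 members were higher and 2 lower in AML12 cells, against 0 and 1, and 5 were lower in liver, against 0. The control median of type I genes, 1.39 as reported, was 1.18 as a mean, 1.60 without 6 less interferon-dependent genes, 1.59 after loess and 1.54 after quantile normalization of the pair. That of type II genes, 1.94 as reported, was 2.39 as a mean, 2.08 without the 3 antigen processing genes, 1.80 with the level filter or with probe sets of several symbols kept, 2.28 after loess and 2.07 after quantile normalization. Across the alternatives the median of *Ulk1* siRNA minus control was between 0.02 and 0.08 in AML12 cells and between -0.18 and -0.10 in liver for type I genes, and between 0.02 and 0.15 and between -0.24 and -0.12 for type II genes. No paired analysis was possible because each group has 1 array, and no array could be left out for the same reason. Of the values of single members, 447 stayed within 0.1 log2, which for values near 0 can include a turn of sign, and 3 did not, namely *Parp9* in cells to -0.15 when probe sets of several symbols were kept, and *Ifi35* and *Lgals3bp* in liver to 0.33 and -0.35 when probe sets were averaged. Scaling shifted single members by between -0.03 and 0.07 log2, and the number of arrays, not signal over background alone, limits every difference.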
